A study of Mus musculus with 2 samples.

Results

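The microRNA (miRNA) genes of blood cells were followed in newborn mouse skeletal muscle. The set held 8 of the 1973 miRNA genes listed in the deposited tables, chosen by name: Mir451a and Mir144 of red cells, Mir142b, Mir223 and Mir150 of white cells, and Mir146, Mir146b and Mir155, which white cells switch on when activated. All 8 were listed. Mir142b was read on its opposite strand, where it stands for Mir142, because Mir142 itself was not among the listed genes. The libraries were made from short RNA in total RNA of skeletal muscle of strain B6NCrl at postnatal day 0. There were 2 libraries, replicate 1 from pup 1 and replicate 2 from pup 2, both labelled pregnant 1, with sex not collected. No treatment, genotype or other group was labelled, so the comparisons set 2 pups side by side. A p-value here compares the reads of 2 libraries and does not compare conditions. Each library is 1 pup, so differences between pups, dissections and library preparations cannot be told apart.

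A miRNA is cut from a hairpin in a longer transcript, and its mature strand guides Argonaute proteins to messenger RNAs that pair with its seed, bases 2 to 8. Red cells carry miR-451a and miR-144 from a shared primary transcript that the factor GATA1 drives in erythroid cells, and miR-451a is matured by Ago2 without Dicer. miR-142 marks nearly all cells of the blood lineage, miR-223 marks granulocytes and monocytes, and miR-150 marks mature lymphocytes. miR-146a, miR-146b and miR-155 rise in white cells on inflammatory signals, and other cell types make them too. Skeletal muscle holds blood in its vessels and resident white cells such as macrophages, and bulk tissue RNA pools all of these with the fibres.

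The mature sequences from RefSeq (GRCm38.p6) are shown with the seed in capitals, to tell the members apart and to show which ones share a seed. Sequences were matched for 7 of the 8 members, with Mir142 in place of Mir142b on its line, and Mir150 is named only. Each line gives the arm described most often for that gene, and both arms for Mir142; the tables count a gene's arms together.
mmu-miR-451a: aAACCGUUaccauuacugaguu
mmu-miR-144-3p: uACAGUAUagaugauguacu
mmu-miR-142a-5p: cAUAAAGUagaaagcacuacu
mmu-miR-142a-3p: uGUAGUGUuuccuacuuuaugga
mmu-miR-223-3p: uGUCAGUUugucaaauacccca
mmu-miR-146a-5p: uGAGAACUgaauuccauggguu
mmu-miR-146b-5p: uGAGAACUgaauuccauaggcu
mmu-miR-155-5p: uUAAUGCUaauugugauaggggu
The only seed shared among these lines was GAGAACU, of miR-146a-5p and miR-146b-5p, which differed at 2 of 22 bases, G18A and U21C, counted from 1 at the 5′ end with the miR-146a-5p base first. Their first 17 bases were the same, so a read that ends there fits both genes.

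The hairpins of the red cell pair lie 99 bases apart on the plus strand of chromosome 11 (mm10), Mir144 at 78073005 to 78073070 and Mir451a at 78073170 to 78073241. They are shown because the balance of the pair differed between the pups. Capitals mark the mature strands.
Mir144: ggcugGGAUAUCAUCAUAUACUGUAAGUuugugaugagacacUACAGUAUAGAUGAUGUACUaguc
Mir451a: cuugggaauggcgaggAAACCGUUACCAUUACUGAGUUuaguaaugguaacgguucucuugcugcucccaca
In the lowest-energy fold of each (ViennaRNA, -28.60 kcal/mol for Mir144 and -43.30 kcal/mol for Mir451a), both arms of miR-144 lay outside the end loop. The last 4 bases of miR-451a, positions 35 to 38 of the hairpin, made up the whole loop, so its mature strand ended at the last base of the loop. The hairpin of Mir451b is annotated on the other strand at the same place and is the exact reverse complement of that of Mir451a. No read was counted on the opposite strand at Mir451a in either library, which allows a share of up to 0.238% of its counts in replicate 1 and 0.284% in replicate 2 (3 counts, counting error only).

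Counted together, the 8 genes came to 7194 counts in replicate 1 and 6965 in replicate 2, a small part of the miRNA of these muscles. Set against the own-strand total of all listed genes, this was 0.192% in replicate 1 and 0.136% in replicate 2. The sum includes 3201 and 3075 opposite-strand reads at Mir142b that the own-strand total does not hold, and the other 7 genes alone held 0.106% and 0.0758% of that total. The exact 95% (Clopper-Pearson) intervals were 0.187% to 0.196% and 0.132% to 0.139%, with a mean of 0.164% ± 0.0395 (SD, n = 2). All levels are counts per 1000000 (CPM), taken over the own-strand counts of all listed genes, which came to 3754895 in replicate 1 and 5133949 in replicate 2. CPM was not scaled by gene length, since each mature strand is 20 to 23 bases long and gives 1 read. In bulk tissue, fewer cells of a type and less miRNA per cell cannot be told apart. Whether the vessels were flushed before dissection is not given in the sources used here. Mir206, the miRNA of skeletal muscle fibres, had 79447 CPM in replicate 1 and 87198 CPM in replicate 2, the highest level of the listed genes in each. Mir206 thus gave 93.2 counts for each count of Mir142 in replicate 1 and 146 in replicate 2. Reads that map to several places (30.2% of reads in replicate 1 and 29.9% in replicate 2) are listed apart from the gene counts. The rank and the ratios leave such reads out, so a miRNA made from more than 1 locus can be undercounted beside Mir206. The endothelial miRNA gene Mir126a, a measure of the vessel lining, had 40785 CPM in replicate 1 and 36558 CPM in replicate 2, which is 47.8 and 61.0 counts for each count of Mir142.

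**Figure D1:**
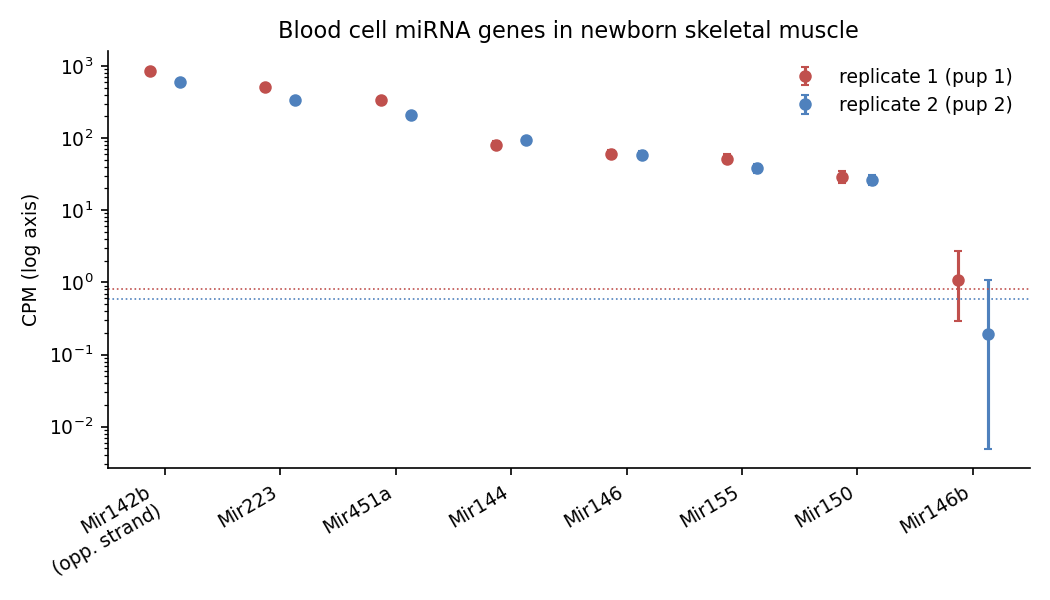
Level of each of the 8 genes in CPM on a log axis, with replicate 1 (red) left of replicate 2 (blue). Bars are exact 95% intervals for counting error and dotted lines the upper limit set by a count of 0 in each library (0.799 CPM and 0.584 CPM). Mir142b, Mir223 and Mir451a lay above 200 CPM in each library and were higher in replicate 1, while Mir146b lay near those limits.

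Among the red cell genes, Mir451a was much the more abundant. It had 1260 counts in replicate 1 and 1058 in replicate 2, which is 336 CPM (95% interval 317 to 355) and 206 CPM (194 to 219). Its level was higher in replicate 1 by 1.49-fold after TMM scaling, and the intervals of the 2 libraries did not overlap. Mir144, from the same transcript, had 303 and 479 counts, or 80.7 CPM (71.9 to 90.3) in replicate 1 and 93.3 CPM (85.1 to 102) in replicate 2. Its order was the reverse of that of Mir451a, with replicate 2 above replicate 1, and here the intervals did overlap. These intervals are not TMM-scaled, and the TMM-scaled test, given below, did pass for Mir144. The summed share of both genes was 0.0416% in replicate 1 and 0.0299% in replicate 2.

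The miRNA gene of the blood lineage as a whole had the highest level of the 8. At the place of Mir142b (chromosome 11, 87756841 to 87756955, minus strand) 3201 reads in replicate 1 and 3075 in replicate 2 lay on the plus strand, the strand of Mir142 (87756864 to 87756927), in an intron of the non-coding gene Mir142hg. On the strand of Mir142b itself no read was counted in either library. That gave 852 CPM (823 to 883) in replicate 1 and 599 CPM (578 to 620) in replicate 2. The mature miR-142b is the exact reverse complement of bases 4 to 23 of miR-142a-3p, so a counter that keeps strand separates both genes and one that ignores strand does not.

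Mir223, which restrains granulocyte production and activity in mice, followed at 1896 and 1721 counts. It lies on chromosome X at 96242817 to 96242926, inside an exon of F630028O10Rik, a longer transcript. Its level was 505 CPM (482 to 528) in replicate 1 and 335 CPM (320 to 351) in replicate 2. The 2 intervals were far apart, with replicate 1 the higher. Mir150, which holds down the transcription factor Myb in lymphocytes, was low. The gene is on chromosome 7 (45121757 to 45121821) and was counted 108 and 135 times, or 28.8 CPM (23.6 to 34.7) and 26.3 CPM (22.0 to 31.1) in replicates 1 and 2. The libraries could not be told apart for Mir150, and Mir142 gave 29.6 counts for each of its counts in replicate 1 and 22.8 in replicate 2.

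Of the genes switched on by activation, Mir146 and Mir155 were present at 38.2 to 60.7 CPM and Mir146b was barely seen. Mir146, whose product lowers the signalling proteins Traf6 and Irak1, makes miR-146a and lies on the minus strand of chromosome 11 (43374397 to 43374461). It was counted 228 and 300 times, or 60.7 CPM (53.1 to 69.1) in replicate 1 and 58.4 CPM (52.0 to 65.4) in replicate 2. These values lay within each other's intervals. Mir155, in an exon of its host gene Mir155hg on chromosome 16 (84714140 to 84714204), had 194 and 196 counts. Its level was 51.7 CPM (44.7 to 59.5) in replicate 1 and 38.2 CPM (33.0 to 43.9) in replicate 2, with intervals that did not overlap. These intervals are not TMM-scaled, and the TMM-scaled ratio of Mir155, given below, did not pass (adjusted p = 0.0807, exact binomial test). Mir146b, in an intron of Mfsd13a on chromosome 19 (46342762 to 46342870), was counted 4 times in replicate 1 and once in replicate 2. At 1.07 CPM (0.290 to 2.73) and 0.195 CPM (0.00493 to 1.09) it lay near the limit of detection, too low to compare the pups.

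**Figure D2:**
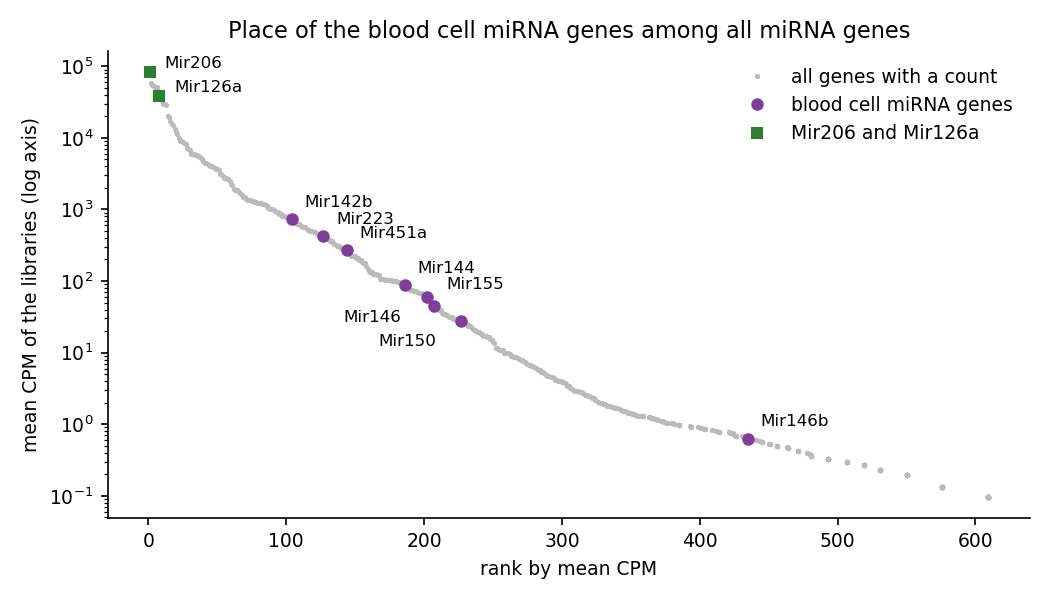
Mean CPM of the 2 libraries on a log axis against rank, for all genes with a count (grey), with the 8 blood cell genes in purple and Mir206 and Mir126a in green. The 8 genes run from rank 104 to rank 435, below the 2 genes of muscle fibres and endothelium at ranks 1 and 8.

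None of the 8 genes was among the 100 most abundant by mean level, although Mir142 held rank 100 in replicate 1 alone. By mean level the order was Mir142 (rank 104 of 1973), Mir223 (127), Mir451a (144), Mir144 (186), Mir146 (202), Mir155 (207), Mir150 (227) and Mir146b (435). Around Mir142 (726 ± 179 CPM, SD, n = 2), the gene next above was Mir539 (753 ± 40.6 CPM) and next below Mir195a (678 ± 157 CPM), and neither differed from it by more than the spread between the pups. The genes next to Mir146b (0.630 ± 0.616 CPM) were Mir7224 and Mir6939, with at most 5 counts in a library. Within the set, the 2 CPM values of each gene lay wholly above those of the next gene in that order, with 1 exception. Mir223 in replicate 2 (335 CPM) and Mir451a in replicate 1 (336 CPM) met, although within each library Mir223 was higher, by 1.505-fold in replicate 1 (95% interval 1.40 to 1.62) and 1.63-fold in replicate 2 (1.51 to 1.76). Mir146 and Mir155 did not differ beyond counting error within replicate 1 (228 against 194 counts, p = 0.108, two-sided exact binomial test), and they did within replicate 2.

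The pups differed in the more abundant blood genes by less than 2-fold. The log2 ratio of replicate 1 over replicate 2 was tested in 374 genes with at least 10 counts in total, 7 of the members among them (Mir146b had 5), by an exact binomial test on TMM-scaled library sizes with Benjamini-Hochberg adjustment over all genes tested. At an adjusted p under 0.05 and at least 2-fold, 0 of 7 members were called, beside 5.08% of all genes. Without the fold minimum, 3 of 7 members were higher in replicate 1, against 23.5% of all genes, and 1 of 7 was lower, against 25.7%. The 3 were Mir451a (log2 ratio 0.57, 95% interval 0.45 to 0.69, adjusted p = 8.66e-21), Mir223 (0.46, 0.36 to 0.55, adjusted p = 6.11e-21) and Mir142 (0.38, 0.31 to 0.45, adjusted p = 2.20e-24), all by this exact binomial test. Regardless of sign, 20.6%, 29.4% and 38.5% of all 374 genes tested had a larger log2 ratio than Mir451a, Mir223 and Mir142. The median size was 0.32 over all of these genes and 0.24 over the 253 with at least 100 counts in total. Genes with few counts spread more by counting error. Those percentages can therefore overstate how common such ratios were among genes as abundant as these 3. The 1 lower was Mir144 (-0.34, -0.55 to -0.13, adjusted p = 0.00334 by the same exact test), and it did not pass with total-count scaling (-0.21, adjusted p = 0.0945).

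The remaining 3 did not pass. Mir155 had a log2 ratio of 0.30 (0.011 to 0.60, adjusted p = 0.0807, exact binomial test) and passed with total-count scaling (0.44, adjusted p = 0.00683). Mir146 had -0.076 (-0.33 to 0.18) and Mir150 had -0.0009 (-0.38 to 0.37), so smaller differences than these intervals span were not detectable at this depth. The median over the 7 members was 0.30, against -0.0035 over all 374 genes. The scale matters for these counts, since TMM moved every log2 ratio by -0.13 against total-count scaling. With total-count scaling 4 of 7 members were higher in replicate 1 and 0 lower, beside 119 and 64 of all 374 genes.

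**Figure D3:**
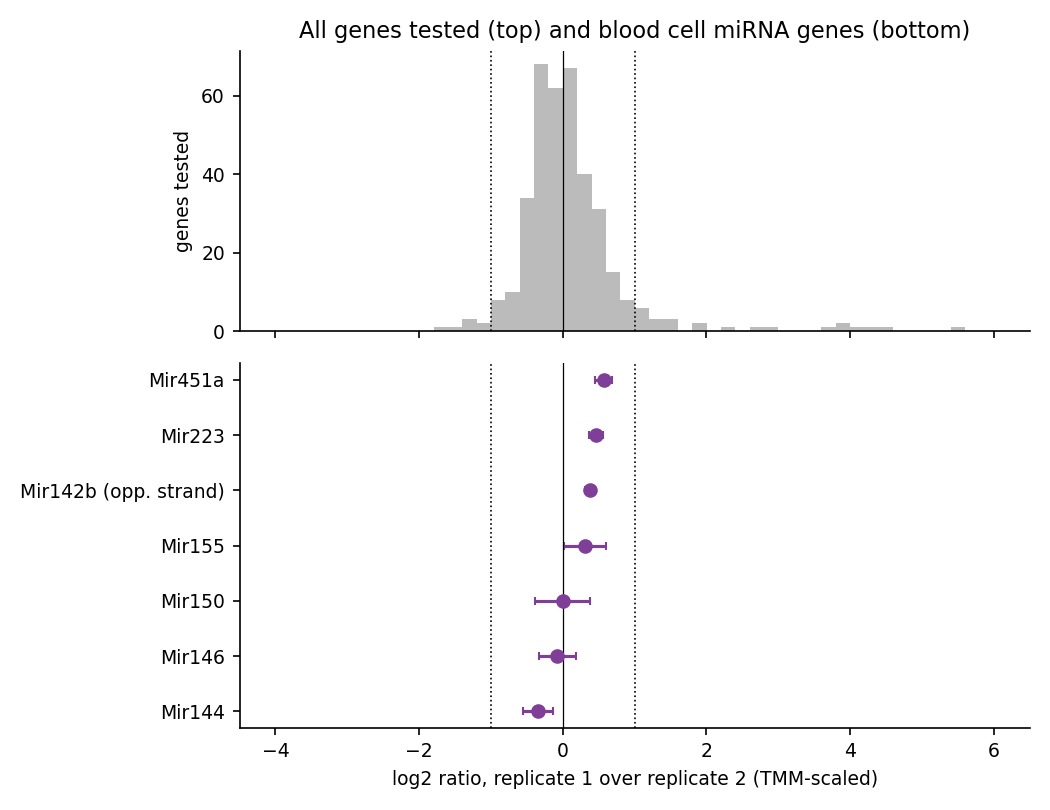
Log2 ratio of replicate 1 over replicate 2 after TMM scaling. The upper panel counts all 374 genes tested in bins of the ratio, and the lower panel gives the 7 members tested with exact 95% counting intervals; dotted lines mark 2-fold. The members run from -0.34 for Mir144 to 0.57 for Mir451a, all inside the 2-fold lines.

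Genes of other tissues moved between the pups as well. All 7 of 7 miRNA genes listed for epithelium were called higher in replicate 1 at 2-fold, beside 4.55% of all genes tested (17 of 374, these 7 among them), with a summed share of 0.569% in replicate 1 and 0.0230% in replicate 2, and each had counts in both libraries. Mir205 of epithelium had 843 CPM in replicate 1 and 17.9 CPM in replicate 2, and Mir140 of cartilage had 6539 CPM and 966 CPM. The 4 muscle genes listed held 8.13% and 8.93%. Most of this was Mir206, with 298316 of 305125 counts in replicate 1 and 447669 of 458236 in replicate 2. It is the share of the listed genes and not of all muscle miRNA. The part of these differences in the ratios of the blood genes was not tested.

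Within the 8 genes the make-up was close in the 2 pups, although their summed share was 1.41 times as high in replicate 1. That ratio is on total counts, and TMM scaling would lower it (log2 shift of -0.13). The red cell pair made up 21.7% of the counts of the 8 genes in replicate 1 (95% interval 20.8 to 22.7) and 22.1% in replicate 2 (21.1 to 23.1), and Mir142 made up 44.5% (43.3 to 45.7) and 44.1% (43.0 to 45.3). Neither share differed beyond counting error (adjusted p = 0.685 for each, two-sided Fisher's exact test adjusted over 9 comparisons). Mir223 made up 26.4% and 24.7% (adjusted p = 0.0571, same exact test). These shares do not depend on the library total or on a scaling factor. They do depend on each other, so the share of a gene can shift because other members changed. A shift was seen for 3 single genes, of which Mir146 did not differ in level (log2 ratio -0.076, adjusted p = 0.688, exact binomial test). Mir451a held 17.5% in replicate 1 and 15.2% in replicate 2 (adjusted p = 0.000874, Fisher's exact test), Mir144 held 4.21% and 6.88% (adjusted p = 3.35e-11, same exact test), and Mir146 held 3.17% and 4.31% (adjusted p = 0.00114, same exact test).

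**Figure D4:**
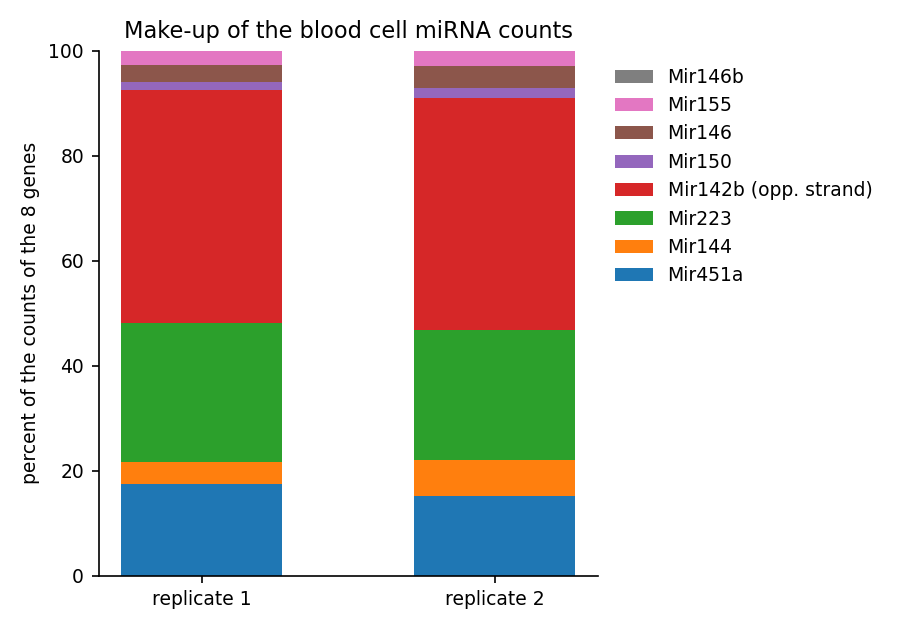
Percent of the summed counts of the 8 genes held by each gene, as 1 stacked bar for replicate 1 and 1 for replicate 2. The red cell pair at the bottom takes 21.7% and 22.1%, but the Mir144 band is wider in replicate 2 (6.88%) than in replicate 1 (4.21%).

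Of the 5 ratios between members that were compared, the balance within the red cell pair was the one that differed between the pups. These 5 set Mir144 against Mir451a only, so they cannot show whether the shift is particular to the pair. The log2 ratio of Mir144 (-0.34) was the lowest of all members tested, also below those of Mir223 (0.46) and Mir142 (0.38). Mir451a gave 4.16 counts for each count of Mir144 in replicate 1 (95% interval 3.67 to 4.73) and 2.21 in replicate 2 (1.98 to 2.47), a ratio of ratios of 1.88 (adjusted p = 2.15e-13 over 5 ratios, two-sided Fisher's exact test). The other 4 ratios compared between members did not pass, among them Mir223 over Mir451a at 1.505 and 1.63 (adjusted p = 0.181, same exact test). Neighbouring miRNA genes give a scale for such a gap. Among 83 pairs of neighbours on the same strand within 10000 bases, each gene with at least 100 counts per library, the log2 ratios between the pups differed by a median of 0.15. Mir144 and Mir451a differed by 0.91, and 1 pair, Mir181a-2 and Mir181b-2, differed by more (1.36). This background was chosen after the values were seen, and many of its pairs share a gene or a cluster. No stretch of 18 bases of either arm of miR-144 was found in another hairpin of the RefSeq table, on either strand, and for miR-451a the only other was Mir451b, its reverse complement. Shorter stretches and the rest of the genome were not searched, and the cause of the shift was not tested.

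**Figure D5:**
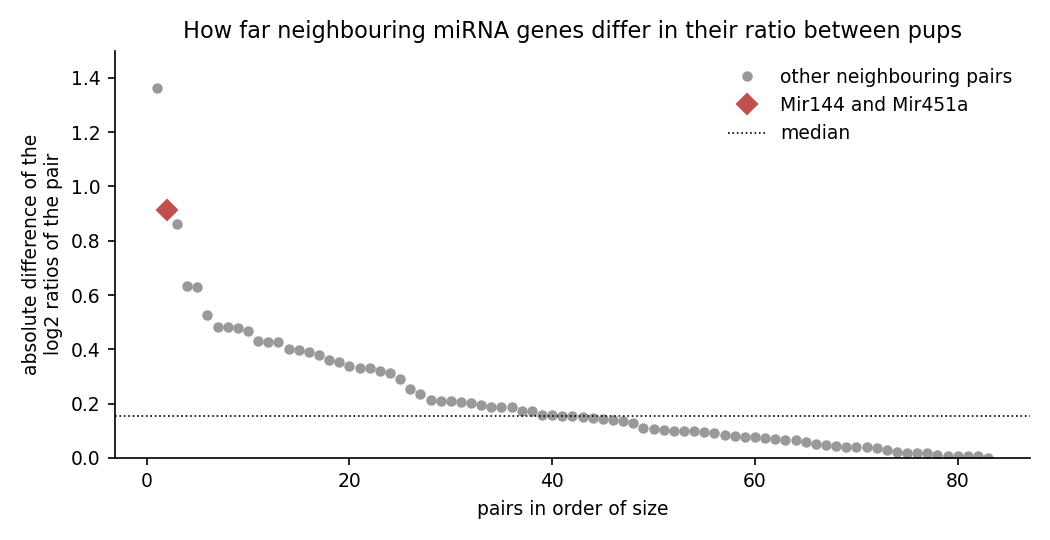
Absolute difference of the log2 ratios (replicate 1 over replicate 2) of the 2 genes of each of 83 neighbouring pairs, in order of size. Mir144 and Mir451a (red diamond, 0.91) stand in the second place, far above the median of 0.15 (dotted line).

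A wider list of miRNA genes known from blood cells, which many tissues make too, was counted beside the 8. Of its 25 genes, 23 were listed and tested; Mir451b and Mir486b were not among the listed genes. Their summed share was 1.20% in replicate 1 and 1.03% in replicate 2. Of the 23, 10 were higher in replicate 1 (43.5%, against 23.5% of all genes), 5 were lower (21.7%, against 25.7%) and 8 did not pass by the exact binomial test with no fold minimum. The median log2 ratio was 0.22. With total-count scaling 14 were higher (60.9%, against 31.8% of all genes) and 2 lower (8.70%, against 17.1%). The most abundant of the list was Mir652, in an intron of Tmem164, at 4181 CPM in replicate 1 and 3923 CPM in replicate 2. It was lower in replicate 1 with no fold minimum (log2 ratio -0.040) and the sign turned with total-count scaling (0.092). Mir342, in an intron of Evl and known from lymphocytes, was clearer, at 1425 and 1032 CPM with a log2 ratio of 0.33.

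Further members of that list were split. Mir16-1 had 1064 CPM in replicate 1 and 678 CPM in replicate 2 (log2 ratio 0.52), and Mir15b, in an intron of Smc4, had 627 and 514 CPM (0.16). Of the Mir181 genes, active in lymphocyte development, Mir181d had 721 and 560 CPM (0.23), while Mir181c had 1517 and 1516 CPM (-0.13, and 0.0013 with total-count scaling) and Mir181a-1 had 499 and 529 CPM (-0.22). Mir339 had 325 and 303 CPM and did not pass. Mir16-1 and Mir181a-1 have mature sequences made from more than 1 locus, and reads that map to several places (30.2% of reads in replicate 1 and 29.9% in replicate 2) are listed apart from the gene counts, so their levels are uncertain. At 2-fold 1 of the 23 was called, beside 5.08% of all genes tested, so the list gave no more such calls than all genes. That gene was Mir511, in an intron of the macrophage mannose receptor gene Mrc1, with 93 and 57 counts. Its level was 24.8 CPM in replicate 1 and 11.1 CPM in replicate 2 (log2 ratio 1.02, adjusted p = 6.36e-05, exact binomial test). The 95% interval of the log2 ratio, 0.535 to 1.53, reached below 2-fold. It was singled out after its values were seen.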

How the data were processed

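Short RNA of newborn mouse skeletal muscle was counted in 2 libraries of 1 group. The authors deposited whole-number read counts per miRNA gene on build mm10 with annotation M4, per the description deposited with each library. The sources used here name neither aligner nor counter. The tables had 3 unnamed columns of counts. The first equalled the sum of the others in every gene, and these were read, from their layout, as own-strand and opposite-strand reads. The 4 leading lines for reads outside genes, multimapping reads among them, stayed out of library totals.

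Identifiers were matched to GENCODE M21, the same genome build (1894 of 1973). CPM used own-strand totals of 3754895 and 5133949. Ratios used edgeR 4.0.16 TMM sizes (R 4.3.3), 0.5 added to each count, and exact binomial tests with Benjamini-Hochberg adjustment. The binomial test was tried on simulated counts with counting error only and known library sizes. That trial covered neither TMM scaling nor variation between pups. Intervals are exact at 95% (scipy 1.17.1) and cover counting error only, and no molecular identifiers are described. A count of 0 allows up to 3 counts. Hairpins were folded with ViennaRNA 2.7.2. Mir142b was tested with its opposite-strand counts. By the naming rule, genes named outside the members were the 8 highest of the other blood-linked list, Mir206, Mir126a and Mir205, and the genes next in level to the highest and lowest member. Outside this rule, Mir140 was named as the cartilage marker, and Mir511, Mir181a-2 and Mir181b-2 after their values were seen. The members and lists were chosen with earlier results of these data known.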

Additional observations from a re-analysis of the deposited data

How the results depend on the processing

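The share of the 8 genes (0.164%) was 0.0854% of all reads and 0.330% without the 10 most abundant genes in the denominator, which changes the denominator alone. Leaving Mir142b out of the sum gave 0.0911% of the same total, and the red cell part of the set was then 39.3%. With no fold minimum 4 members and 184 of all genes differed between the libraries, and with 1.5-fold 37 genes, against 0 and 19. The sign of Mir150 turned with both strands (0.0023), DESeq2 1.42.0 size factors (0.0013), total counts (0.13) and a pseudocount of 1 (0.0004), and that of Mir146 with total counts (0.056); neither passed a test under any of these. Of 42 recomputed log2 ratios of members, 35 kept direction and side of the threshold and 5 turned sign as given. With total counts and no fold minimum Mir144 no longer passed (-0.21, adjusted p = 0.0945) and Mir155 did (0.44, adjusted p = 0.00683, exact binomial test). TMM moved every log2 ratio by the same -0.13 against total counts, and why the scalings differ was not tested. Each library alone gave a share of 0.136% to 0.192% and a red cell part of 21.7% to 22.1%. In the comparison of neighbours, chosen after seeing the data, Mir144 and Mir451a took place 2 of 90 at 50 counts and place 1 of 70 at 300. No paired analysis was possible because the labels name 1 group only. With 5 counts, Mir146b is limited by depth.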
